A study of Mus musculus with 6 samples.

Results

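Glycolysis breaks glucose down to pyruvate, and glycogen is the store of glucose that skeletal muscle draws on when it contracts. Many steps of both routes have paralogous enzymes, with a form that dominates in mature muscle fibres and other forms that are typical of brain, liver, blood or dividing cells. The 39 genes described here encode the enzymes of these routes in mouse tibialis anterior, a fast limb muscle rich in glycolytic fibres. They were taken by gene symbol from a set list, not by a threshold on their values, and make up 39 of the 54232 genes in the count table. The list was chosen with earlier results of these data known. Of these, 11 were set apart as muscle forms, 11 as other forms of the same enzymes and 17 as enzymes not split by form.

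The muscle came from C57BL6 mice aged 1 month. The 3 WT libraries (numbered 1 to 3) are from mice with the wild-type genotype. The 3 D51 libraries (numbered 4 to 6) carry a deletion of exon 51 of Dmd, labelled Delta 51, and Dmd encodes dystrophin, which links the fibre's cytoskeleton to the surrounding matrix. No treatment is named for either group, and the libraries are labelled as biological replicates. The groups are read here as Dmd-mutant against wild-type muscle.

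Total counts ran from 15681945 to 21020353 per library. Dmd was at 235, 249 and 266 CPM in WT and 47.7, 46.4 and 51.1 CPM in D51, and D51 muscle held 19.3% of the WT level (log2 fold change -2.37, SE 0.09, adjusted p = 2.77e-05, edgeR quasi-likelihood test); the count covers the whole gene, not the deleted exon alone. Genes of the mitochondrial genome took 19.4 to 21.05% of WT counts and 13.4 to 14.8% of D51 counts, and the factors by which TMM rescales each library lay at 0.869 to 0.898 for WT and at 1.04 to 1.19 for D51. Of the muscle fibre markers Acta1, Ckm, Mb, Ryr1 and Ttn, each was abundant in all 6 libraries, whereas Tnnc2, the fast troponin C, was nearly absent from the counts (0 to 1.49 CPM). Library 6 stood apart from the other D51 libraries in several members, as given below. Levels are in CPM (counts per 1000000), taken on the TMM-scaled total of each library.

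The promoters of 2 enzyme pairs are given first, because the results turn on the contrast between their forms. Pgam2 is the muscle form of phosphoglycerate mutase and Pgam1 the form of most other tissues; Pygm and Pygl are the muscle and liver forms of glycogen phosphorylase. The sequences are the 250 bases before the annotated start, 5′ to 3′ on the gene's strand, from RefSeq on GRCm38.p6. Capitals mark CANNTG (the E-box letters), on either strand the hypoxia-response letters, which are ACGTG with its variant spelled GCGTG, and, in Pgam2, a match to the MEF2 motif.
Pgam2 (chr11:5803797-5804046, minus strand): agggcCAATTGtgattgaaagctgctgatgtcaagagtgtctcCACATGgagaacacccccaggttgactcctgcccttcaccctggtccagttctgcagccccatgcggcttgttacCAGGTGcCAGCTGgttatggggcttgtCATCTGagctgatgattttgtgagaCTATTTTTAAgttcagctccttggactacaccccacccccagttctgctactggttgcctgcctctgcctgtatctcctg
Pgam1 (chr19:41911621-41911870, plus strand): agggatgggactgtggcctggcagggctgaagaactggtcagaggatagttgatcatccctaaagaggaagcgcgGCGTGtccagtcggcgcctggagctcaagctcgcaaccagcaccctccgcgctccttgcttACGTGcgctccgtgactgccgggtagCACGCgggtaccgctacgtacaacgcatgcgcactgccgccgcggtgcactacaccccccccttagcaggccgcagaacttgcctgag
Pygm (chr19:6384158-6384407, plus strand): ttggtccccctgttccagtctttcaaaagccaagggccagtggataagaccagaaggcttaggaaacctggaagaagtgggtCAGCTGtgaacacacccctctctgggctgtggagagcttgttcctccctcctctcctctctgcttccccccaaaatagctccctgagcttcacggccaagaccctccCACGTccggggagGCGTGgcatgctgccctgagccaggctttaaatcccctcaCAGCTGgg
Pygl (chr12:70227684-70227933, minus strand): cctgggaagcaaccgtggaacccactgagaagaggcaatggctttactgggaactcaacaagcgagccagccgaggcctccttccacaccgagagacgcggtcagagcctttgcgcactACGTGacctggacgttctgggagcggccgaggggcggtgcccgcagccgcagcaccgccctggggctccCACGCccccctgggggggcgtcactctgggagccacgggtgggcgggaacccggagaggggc
Pgam2 held 5 CANNTG and Pygm held 2, and Pgam1 and Pygl held none. The hypoxia-response letters occurred 3 times in Pgam1, 2 times in Pygl, 2 times in Pygm and not in Pgam2. RefSeq entries matched 38 of the 39 genes by symbol. CANNTG was in the promoter of 10 of 11 muscle forms and 5 of 11 other forms, and in 69.3% of all genes. Its variant CAGCTG was in 5 of 11 muscle forms, in 0 of 11 other forms and in 14.7% of all genes; every CAGCTG is also a CANNTG. The hypoxia-response letters were in 8 of 11 muscle forms, 10 of 11 other forms and 41.5% of all genes. The Sp1-type letters GGGCGG were in 5 muscle forms and 4 other forms (35.4% of all genes), CCAAT in 6 and 3 (37.5%), and the MEF2 motif in 1 and 0 (3.42%). All motifs were searched on both strands, and a match is a description of the letters.

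In D51 muscle, 9 of the 38 members with enough counts to test were higher and 6 were lower, and 23 did not pass the test (edgeR quasi-likelihood test, Benjamini-Hochberg adjusted p below 0.05). Over all 14335 genes tested, 16.1% were called higher and 11.9% lower, so neither count of members lay far from the share of all genes. In bulk muscle, fewer cells of a type and less RNA per cell cannot be told apart. Of 10 other forms tested, 8 were higher and 0 lower, with a median log2 fold change of 1.03. Hk3, 1 of the 8, passed the filter for low counts only through the D51 libraries, where it is high. Of 11 muscle forms, 0 were higher and 3 lower, with a median of -0.38, and the log2 fold change was below 0 for all 11 under TMM scaling but above 0 for Pgam2, Eno3, Ldha and Fbp2 with library size alone. Scaling by library size alone called 1 muscle form higher and 0 lower. The 17 enzymes not split by form had 1 called higher, 3 called lower and a median of -0.35, close to that of the muscle forms. The difference between forms was not tested. The median over all genes tested was -0.01. All D51 libraries lay above all WT libraries in 10 members (23.8% of all genes tested) and below them in 13 (21.7%); the 10 were 9 other forms and Pgm1, and 8 of the 13 were muscle forms.

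**Figure D1:**
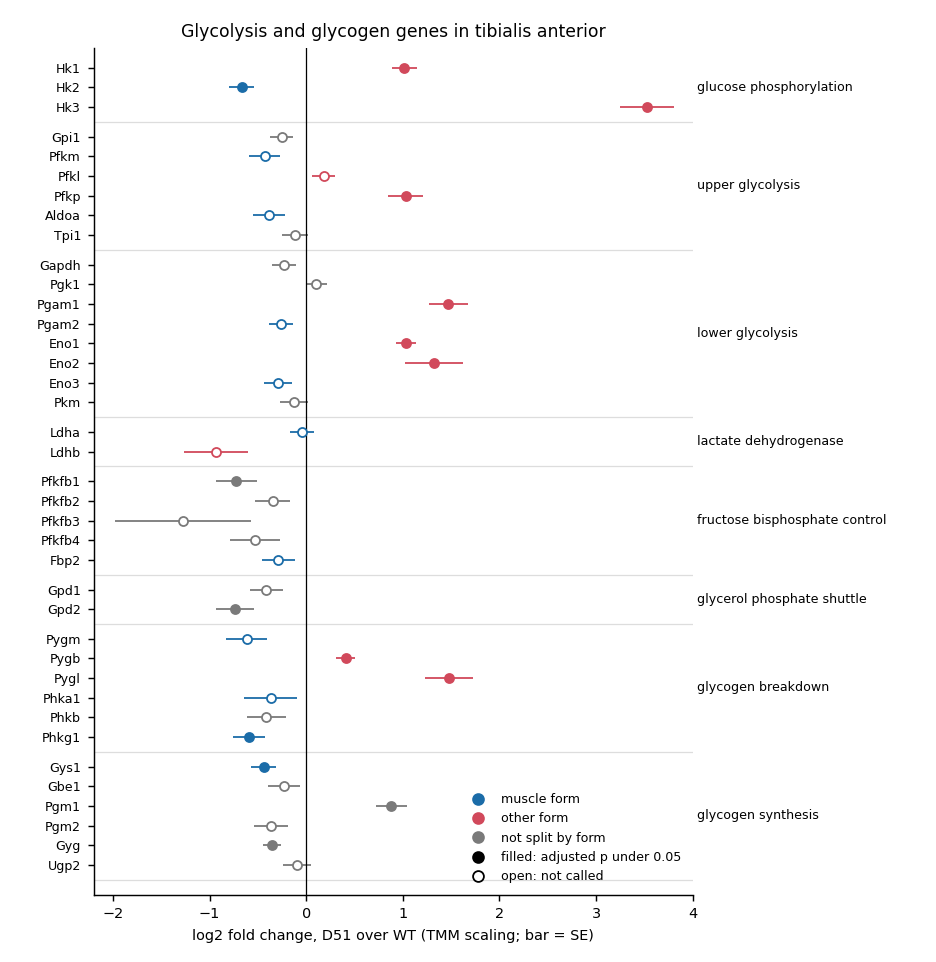
Log2 fold change of D51 over WT muscle on TMM-scaled counts (x axis) for the 38 genes tested, grouped by step of the pathway, with bars for the SE and colour for the form of the enzyme; filled points passed the adjusted p of 0.05. The other forms (red) lie to the right of 0 except Ldhb at -0.93, and the muscle forms (blue) lie between -0.67 and -0.04.

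The first step, the phosphorylation of glucose, is catalysed by hexokinases. Hk2 (chr6:82725025-82774454, minus strand), the insulin-responsive form of skeletal muscle, was at 507, 679.8 and 631 CPM in WT and 394, 353 and 397 CPM in D51. All D51 libraries were below all WT libraries, at 62.96% of the WT mean (log2 fold change -0.67, SE 0.13, adjusted p = 0.00842). Hk1 (chr10:62268855-62379908, minus strand), the hexokinase of brain and most tissues, was at 13.6, 12.0 and 10.2 CPM in WT and 26.99, 22.6 and 23.2 CPM in D51. It was 2.02-fold higher in D51 with no overlap (log2 fold change 1.02, SE 0.13, adjusted p = 0.00195). Hk3 (chr13:55005985-55021385, minus strand), a form known from white blood cells, was at 0.885, 0.384 and 0.501 CPM in WT and 6.63, 7.48 and 6.65 CPM in D51. The Hk3 difference was the largest of all members tested (log2 fold change 3.53, SE 0.28, adjusted p = 0.00033), on 30 raw counts over the 3 WT libraries and 454 over the 3 D51 libraries. The filter for low counts kept Hk3 only through D51, where raw counts were 155, 171 and 128, against 16, 7 and 7 in WT. Per exon length, Hk1 and Hk3 made up 1.56% ± 0.48 (SD, n = 3) of hexokinase transcripts in WT and 6.90% ± 0.49 in D51.

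The next steps convert glucose 6-phosphate to triose phosphates. Pfkm, the muscle form of phosphofructokinase, which commits the sugar to glycolysis, was at 3949.6, 4161 and 3739 CPM in WT and 2857, 2439 and 3508 CPM in D51. The libraries did not overlap, but Pfkm did not pass the test (log2 fold change -0.43, SE 0.16, adjusted p = 0.0802). Pfkp (chr13:6579768-6648777, minus strand), the platelet form, was at 8.63, 5.97 and 7.45 CPM in WT and 17.97, 14.3 and 12.7 CPM in D51. It was 2.04-fold higher (log2 fold change 1.03, SE 0.18, adjusted p = 0.00599). Pfkl, the liver form, was at 9.02, 9.48 and 7.95 CPM in WT and 10.7, 9.58 and 9.76 CPM in D51, and its log2 fold change 0.18, SE 0.12, adjusted p = 0.303 did not pass. Pfkp and Pfkl together were 0.158% ± 0.010 of the family's transcripts per length in WT and 0.304% ± 0.065 in D51. Aldoa, the aldolase of muscle, had the highest mean CPM of the members in both groups, at 10847, 10909.7 and 10148 CPM in WT and 7657, 7129 and 9684 CPM in D51. All D51 libraries were below all WT libraries, with log2 fold change -0.38, SE 0.17, adjusted p = 0.122. A second, shorter gene identifier that carries the symbol Aldoa was not called either (log2 fold change -0.50, adjusted p = 0.142). Aldoc, the brain aldolase, had only 12 counts in WT and 48 in D51 and was not tested. Gpi1, which interconverts glucose and fructose 6-phosphate, and Tpi1, which interconverts the triose phosphates, did not pass (log2 fold change -0.26, adjusted p = 0.135 for Gpi1 and log2 fold change -0.12, adjusted p = 0.543 for Tpi1).

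In the lower part of the pathway, triose phosphates are turned to pyruvate with net gain of ATP. Pgam1 (chr19:41911923-41918660, plus strand) was at 11.8, 11.01 and 12.5 CPM in WT and 36.9, 38.5 and 22.4 CPM in D51. The 3 D51 libraries were above WT, library 6 the least, for a 2.77-fold higher mean (log2 fold change 1.47, SE 0.20, adjusted p = 0.00234). Pgam2 was at 1383, 1269 and 1199 CPM in WT and 1100.2, 943 and 1162 CPM in D51. Its libraries did not overlap and it did not pass (log2 fold change -0.26, SE 0.12, adjusted p = 0.144). Pgam1 was 0.422% ± 0.048 of the pair's transcripts per length in WT and 1.41% ± 0.49 in D51.

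Eno1 (chr4:150236721-150248879, plus strand), the enolase of most tissues, was at 17.7, 16.3 and 16.5 CPM in WT and 37.3, 31.1 and 35.3 CPM in D51. It was 2.05-fold higher (log2 fold change 1.04, SE 0.10, adjusted p = 0.000716). Eno2 (chr6:124760053-124769673, minus strand), the neuronal enolase, was at 1.33, 0.712 and 0.716 CPM in WT and 2.35, 2.06 and 2.60 CPM in D51. It rose on 47 raw counts in WT and 152 in D51 (log2 fold change 1.32, SE 0.30, adjusted p = 0.0143), and the call was lost without WT library 2 (adjusted p = 0.0643). Eno3, the muscle enolase, was at 4238, 4286 and 4213 CPM in WT and 3556, 2929 and 3907 CPM in D51. Every D51 library was below WT, without passing the test (log2 fold change -0.29, SE 0.14, adjusted p = 0.164). The share of Eno1 and Eno2 in the family was 0.136% ± 0.009 in WT and 0.348% ± 0.029 in D51.

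Of the remaining enzymes of this part, none passed the test. Gapdh, Pgk1 and Pkm, which encode glyceraldehyde-phosphate dehydrogenase, phosphoglycerate kinase and pyruvate kinase and were not split by form, had log2 fold changes of -0.23, 0.11 and -0.12. Ldha, the lactate dehydrogenase of glycolytic muscle, was at 2187, 2123 and 2086 CPM in WT and 2089.8, 1844 and 2269 CPM in D51. Its groups overlapped (log2 fold change -0.04, SE 0.12, adjusted p = 0.818). Ldhb, the form of heart and oxidative fibres, was at 93.8, 150.2 and 91.96 CPM in WT and 74.3, 71.05 and 30.6 CPM in D51. All D51 libraries were below all WT libraries, at 52.4% of the WT mean, without passing (log2 fold change -0.93, SE 0.33, adjusted p = 0.0687). It was the only other form tested with a negative log2 fold change, and library 6 was the lowest of the 6.

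Several members have near copies elsewhere in the genome, which the counting could have split or dropped. Of the 50-base stretches of their main transcript, 90.4% for Gapdh, 72.2% for Eno1, 68.0% for Pgk1, 41.5% for Pgam1, 34.4% for Pkm, 27.0% for Ldhb and 25.3% for Gpi1 also occur in transcripts of other annotated genes, and the gene sharing most was a processed pseudogene for all of these but Eno1, where it was Eno1b. The levels and changes of these genes are uncertain to that extent. Hk1, Hk2, Hk3, Pgam2, Eno3, Pfkm and Gyg shared none, and Pygm, Pygb and Pygl shared 0.460%, 0.337% and 1.30%. Pfkfb2 shared 63.5% with the overlapping gene Gm29427, Pfkp 17.1% with the overlapping gene Pitrm1, Phkg1 25.0%, mostly with Sumf2, and Gys1 6.64% with Ruvbl2. Ldha shared 16.6%, Aldoa 13.5%, Gpd1 10.3% and Tpi1 7.51%.

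**Figure D2:**
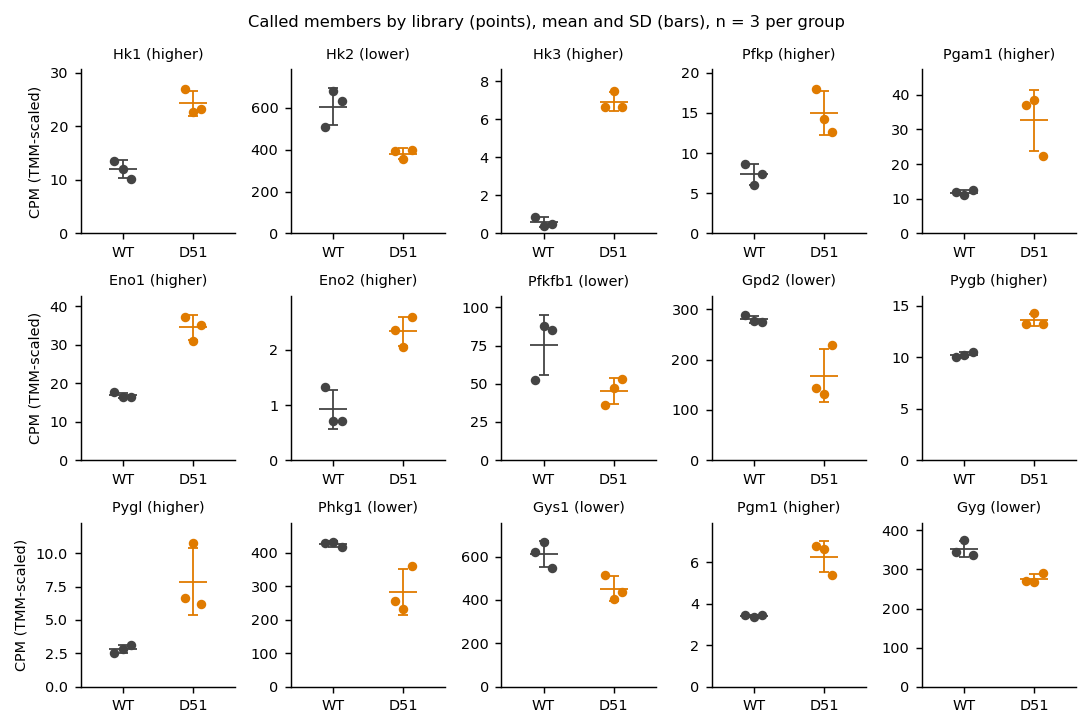
TMM-scaled CPM (y axis, from 0) of the 15 genes called higher or lower, with a point for each library and the mean and SD of each group (n = 3). All but Pfkfb1 separate the 6 libraries by group; Pfkfb1 overlaps because WT library 1 lies at 52.6 and D51 library 6 at 52.9.

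Fructose 2,6-bisphosphate, made and broken down by the Pfkfb enzymes, activates phosphofructokinase. Pfkfb1 (chrX:150588229-150643878, plus strand), the form of liver and muscle, was at 52.6, 87.8 and 85.2 CPM in WT and 36.1, 47.6 and 52.9 CPM in D51. It was called lower although the groups overlapped (log2 fold change -0.72, SE 0.21, adjusted p = 0.0377). Pfkfb3, the inducible form, was at 409.6, 67.6 and 62.1 CPM in WT and 108, 54.1 and 60.5 CPM in D51. WT library 1 was far above the other WT libraries, and the log2 fold change of -1.27 became 0.19 without it. Pfkfb2, the heart form, was at 16.2, 15.8 and 15.7 CPM in WT and 16.3, 9.58 and 11.6 CPM in D51, and the groups overlapped (log2 fold change -0.35, SE 0.18, adjusted p = 0.196). Pfkfb4, the testis form, was at 52.6, 89.9 and 88.95 CPM in WT and 38.3, 51.6 and 70.7 CPM in D51, and also overlapped (log2 fold change -0.53, SE 0.26, adjusted p = 0.165). Fbp2, the muscle fructose bisphosphatase, had -0.29 and did not pass. In the glycerol phosphate shuttle, which passes electrons from cytosolic NADH to the mitochondria, the mitochondrial enzyme Gpd2 (chr2:57237635-57370719, plus strand) was at 288, 278 and 275 CPM in WT and 144, 132 and 229 CPM in D51. All D51 libraries were below WT, with library 6 nearest (log2 fold change -0.74, SE 0.20, adjusted p = 0.0262). The cytosolic partner Gpd1 was at 544, 506 and 514 CPM in WT and 340.4, 325 and 511 CPM in D51 and did not pass (log2 fold change -0.41, SE 0.17, adjusted p = 0.113).

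Glycogen breakdown starts with glycogen phosphorylase, which phosphorylase kinase activates. Pygm, the second most abundant member by CPM, was at 6133, 6289.9 and 6148 CPM in WT and 3418, 3222 and 5489 CPM in D51. Libraries 4 and 5 were far below WT, library 6 was closer to it, and Pygm did not pass (log2 fold change -0.61, SE 0.21, adjusted p = 0.0647). Pygl (chr12:70190811-70231488, minus strand) was at 2.55, 2.79 and 3.15 CPM in WT and 6.67, 10.8 and 6.18 CPM in D51. It was 2.79-fold higher (log2 fold change 1.48, SE 0.25, adjusted p = 0.00493). Pygb (chr2:150786735-150831758, plus strand), the brain form, was at 10.02, 10.2 and 10.5 CPM in WT and 13.3, 14.3 and 13.3 CPM in D51. It rose by the smallest amount of the 9 (log2 fold change 0.41, SE 0.10, adjusted p = 0.0203), and lost its call without WT library 1 or 2 or D51 library 4 or 5, with adjusted p up to 0.0793. The other forms were 0.132% ± 0.005 of phosphorylase transcripts per length in WT and 0.338% ± 0.119 in D51. Phkg1 (chr5:129863421-129898549, minus strand), the catalytic subunit of phosphorylase kinase in muscle, was at 429, 432 and 417 CPM in WT and 255, 233 and 361 CPM in D51. It was at 66.4% of WT (log2 fold change -0.59, SE 0.16, adjusted p = 0.0291). Phka1, the regulatory alpha subunit of muscle, was at 1014, 1129 and 1146 CPM in WT and 604, 652 and 1299 CPM in D51; D51 library 6 was the highest of the 6 and libraries 4 and 5 the lowest (log2 fold change -0.37, SE 0.27, adjusted p = 0.353). Phkb, the shared beta subunit, was at 573, 578 and 600.1 CPM in WT and 364, 352 and 602 CPM in D51. It was likewise highest in library 6 and did not pass (log2 fold change -0.41, SE 0.20, adjusted p = 0.163).

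Glycogen is built from UDP-glucose on a glycogenin primer. Gys1 (chr7:45434844-45456619, plus strand), the muscle glycogen synthase, was at 623, 668 and 547 CPM in WT and 515, 402 and 439 CPM in D51. It was at 73.8% of WT (log2 fold change -0.44, SE 0.13, adjusted p = 0.0377). Gyg (chr3:20122084-20155317, minus strand), glycogenin, was at 345, 376 and 338 CPM in WT and 272, 267 and 291 CPM in D51. It fell with no overlap (log2 fold change -0.35, SE 0.09, adjusted p = 0.0256). With library size alone the log2 fold changes were -0.086 for Gys1 (adjusted p = 0.609) and -0.0029 for Gyg (adjusted p = 0.981). Phosphoglucomutase interconverts glucose 1-phosphate and 6-phosphate. The gene named Pgm1 in the count table (ENSMUSG00000029171, chr5:64092950-64128351, plus strand) was at 3.43, 3.34 and 3.44 CPM in WT and 6.76, 6.61 and 5.40 CPM in D51 and rose (log2 fold change 0.88, SE 0.16, adjusted p = 0.00655). The gene named Pgm2 there (ENSMUSG00000025791, chr4:99929414-99987294, plus strand) was the abundant one, at 989.8, 941 and 944 CPM in WT and 635, 631 and 969 CPM in D51, and did not pass (log2 fold change -0.36, SE 0.17, adjusted p = 0.156). The GENCODE M21 annotation has these 2 symbols the other way round. The branching enzyme Gbe1 and the UDP-glucose pyrophosphorylase Ugp2 had -0.23 and -0.10 and did not pass.

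The balance between forms was then compared within each family as the log2 ratio of muscle form to other forms, per exon length, which no scaling between libraries can move. The ratio was lower in D51 by 2.27 for hexokinase, 1.70 for phosphoglycerate mutase, 1.36 for enolase, 1.29 for glycogen phosphorylase and 0.93 for phosphofructokinase (log2). The hexokinase ratio includes Hk3, which passed the filter for low counts only through D51. Mean RPKM in WT and D51 were 0.160 and 1.88 for Hk3 and 1.40 and 2.84 for Hk1. The size and rank of the hexokinase difference rest in part on Hk3, and the ratio without it was not computed. Eno1 and Pgam1 share 72.2% and 41.5% of their 50-base stretches with other genes, and Eno3 and Pgam2 share none. Both lactate dehydrogenase genes share some (16.6% for Ldha, 27.0% for Ldhb). The ratios and shares of these 3 families are uncertain to that extent. The ratio of Ldha to Ldhb went the other way, 0.95 higher in D51, or 0.47 higher without library 6. For lactate dehydrogenase, Ldhb was 9.93% ± 2.65 of the pair's transcripts in WT and 5.75% ± 2.60 in D51. In all 6 families the 3 D51 ratios did not overlap the 3 WT ratios, and the exact two-sided permutation p was 0.1 for each (0.1 after adjustment over the 6), the smallest that 3 against 3 allows. Such separation was common among single genes, with 23.8% of all genes tested wholly higher in D51 and 21.7% wholly lower. The share for ratios of other genes was not computed. Aldolase gave no ratio, since Aldoc had 0 counts in WT library 3. As counted, the muscle form remained the bulk of each family in D51, from 93.1% for hexokinase to 99.7% for phosphofructokinase, phosphorylase and enolase.

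**Figure D3:**
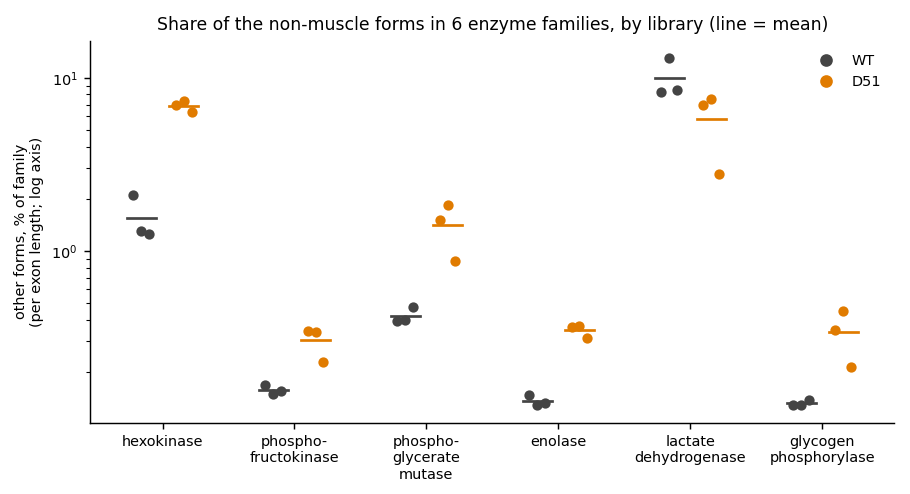
Share of the other forms in the transcripts of 6 enzyme families, in % of the family's counts per exon length (log axis), with a point for each library and a line at each group mean (n = 3). The share is higher in every D51 library in 5 families, as from 1.56% to 6.90% in hexokinase, and lower in lactate dehydrogenase. The hexokinase share includes Hk3, which passed the filter for low counts only through D51.

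Levels per length differed widely among the members. In RPKM on TMM-scaled totals, which are counts per exon length, Aldoa had the highest WT level (3653), followed by Eno3 (2441), Pygm (1924), Pgam2 (1528) and Pfkm (1183), all muscle forms. This ranking and the shares below are of the counts as given. Genes with near copies, such as Gapdh (218, with 90.4% of its stretches shared) and Pgk1 (12.5, with 68.0%), could rank too low. The 9 members called higher had WT levels of 0.160 (Hk3) to 6.44 (Pgam1) on this scale, and the 6 called lower had 18.7 (Pfkfb1) to 151 (Gyg). Together the members took 3.64% ± 0.09 of all counts in WT and 3.60% ± 0.33 in D51 (n = 3 each). With the mitochondrial-genome genes left out of the totals the shares were 4.57% ± 0.10 and 4.19% ± 0.38. Aldoa alone held 25.9% of the members' summed CPM in WT, and the 6 most abundant members held 71.9%.

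**Figure D4:**
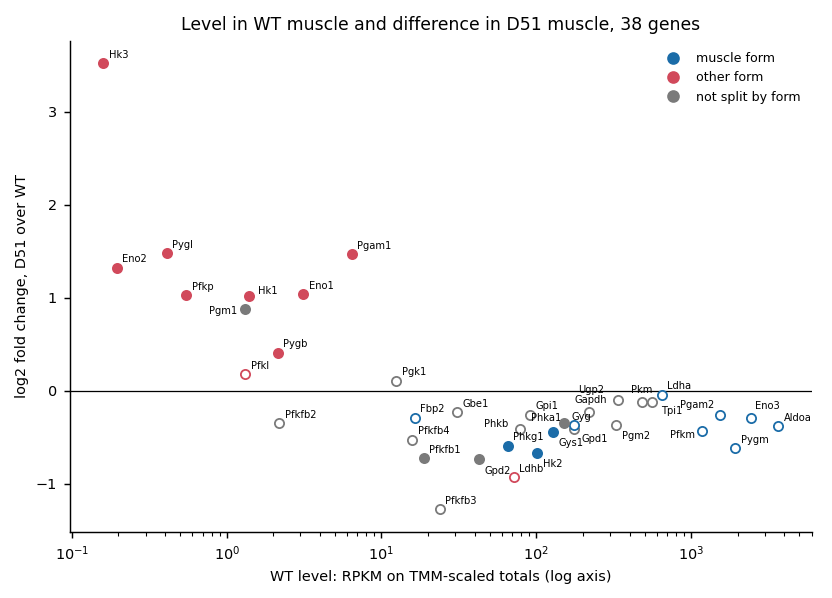
Mean WT level in RPKM on TMM-scaled totals (x axis, log) against the log2 fold change of D51 over WT (y axis) for 38 genes, coloured by form; filled points were called. The genes called higher sit at WT levels up to 6.44 and those called lower between 18.7 and 151.

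The 6 lower calls depended on how the libraries were scaled, and all but Hk2 also on single libraries. Hk2 kept its call whichever library was left out. It lost the call only with library size alone and with limma-trend on RPKM plus 0.1 or plus 1 (adjusted p up to 0.0648). With library size alone in place of TMM, the median of all genes tested moved from -0.01 to 0.34; 37.6% of genes were then called higher and 2.33% lower, and 12 members were higher and 0 lower. With the mitochondrial-genome genes also left out, 26% of genes were called higher and 3.61% lower, and 10 members were higher and 3 lower. Under library size alone the log2 fold changes of Gpi1, Tpi1, Gapdh, Pgam2, Eno3, Pkm, Ldha, Pfkfb2, Fbp2, Gbe1 and Ugp2 turned positive. The lower calls numbered 2, 1 and 2 without WT library 1, 2 or 3, 3 and 1 without D51 library 4 or 5, and 14 without D51 library 6. The calls of Hk1, Hk3, Pfkp, Pgam1, Eno1, Pygl and Pgm1 held in all 17 alternatives. In the authors' deposited table, the same 9 members were higher and 11 were lower (FDR below 0.05), where 19.1% and 18.8% of its genes were called. The lower 11 there were the 6 above with Pfkm, Aldoa, Ldhb, Pfkfb4 and Pygm.

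**Figure D5:**
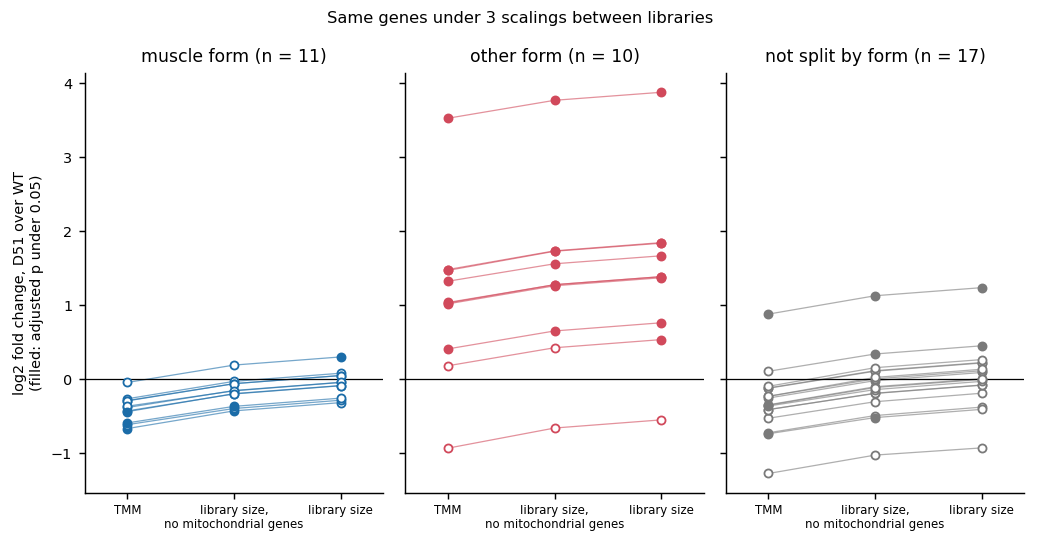
Log2 fold change of D51 over WT (y axis) of the same genes under TMM, under library size without mitochondrial-genome genes and under library size alone, in a panel for each form; filled points had an adjusted p below 0.05. All genes shift up together, by about as much as the median of all genes, and the medians over the members are -0.28, -0.05 and 0.06.

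Markers of other cell types moved with the same groups. Over all genes tested, 16.1% were called higher and 11.9% lower, and with library size alone 37.6% and 2.33%. All 10 macrophage and monocyte markers were higher in D51, and their summed level was 70.8 to 148 CPM in WT and 627 to 1453 CPM in D51, lowest in library 6. All 4 proliferation markers were higher, with sums of 2.25 to 5.23 CPM in WT, 82.0 and 98.2 CPM in libraries 4 and 5, and 16.8 CPM in library 6. Of 6 markers of regenerating fibres, 5 were higher, and their sum, mostly Myh8, was 993 to 1041 CPM in WT and 876 to 1234 CPM in D51. Of 5 markers of fibro-adipogenic progenitors, 3 were higher (sums of 1773 to 3086 and 4268 to 4898 CPM). Of 6 neutrophil markers, only Csf3r had enough counts to test and was higher, and Ly6g, Mpo and Elane were at 0 in all libraries. The 2 lymphocyte markers tested of 6 were higher, with sums of 0.830 to 1.79 CPM in WT and 2.71 to 3.74 CPM in D51. The 6 defining markers of muscle fibres summed to 57764 to 63371 CPM in WT and 38497 to 50083 CPM in D51, 2 of them lower (Mb and Ryr1), again with library 6 nearest to WT. Fast and slow fibre genes gave 2 higher and 1 lower of 11 (sums of 104239 to 110514 and 65899 to 96564 CPM). Those higher were Tnnt1 (log2 fold change 1.95) and Atp2a2 (1.08), and the lower one was Myh7 (-2.08). Endothelial markers gave 3 lower of 5 (sums of 422 to 509 and 297 to 376 CPM), and smooth muscle and pericyte markers 2 lower of 4 (998 to 1127 and 628 to 727 CPM). Nerve and Schwann cell markers gave 3 lower of 4 tested (57.1 to 69.8 and 30.5 to 35.1 CPM, Snap25 at 0), red cell markers 3 lower of 5 (105 to 175 and 59.9 to 98.6 CPM) and fat cell markers 0 of 4 (3.98 to 5.73 and 1.93 to 7.57 CPM). With library size alone, the lower calls became 0 for the endothelial and the red cell markers and 1 for the defining fibre markers, and the counts of higher macrophage, proliferation and regenerating fibre markers were as with TMM. Without D51 library 6, 5 defining fibre markers and 6 fast and slow fibre genes were lower, and without WT library 2 both counts were 0. Without D51 library 5, 1 defining fibre marker was lower. The red cell markers had 0 lower without WT library 1 or D51 library 5 or 6, 2 without WT library 2 or 3, and 5 without D51 library 4. The part of these cells in the members' differences was not tested.

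Genes around the 39 members were then counted by list. Over all genes tested, 16.1% were called higher and 11.9% lower, and with library size alone 37.6% and 2.33%. Of 14 genes that bring pyruvate into the mitochondria and control its oxidation, 11 were lower and 1 higher, with a median log2 fold change of -0.48. Among them, the pyruvate carrier subunit Mpc1 (-0.69, adjusted p = 0.0022) and the pyruvate dehydrogenase kinase Pdk2 (-0.81, adjusted p = 0.00242) fell, and Pdk3, another such kinase, rose (1.75, adjusted p = 0.00124). Pdk3 stayed far below Pdk2, at a mean of 1.62 CPM in WT and 5.47 CPM in D51 against 501 and 286 CPM. With library size alone 3 were lower and 1 higher, and 7 were lower without WT library 2, WT library 3 or D51 library 5. Of 10 carriers of glucose and lactate, 3 were lower and 0 higher, among them the insulin-responsive carrier Slc2a4 (-0.63, adjusted p = 0.01), and with library size alone 0 were lower and 1 higher. Lower carriers numbered 1 without WT library 2 or 3 or D51 library 4 or 5, and 2 without WT library 1. Of 10 genes of the pentose phosphate and hexosamine branches, 3 were higher and 0 lower. These were the oxidative enzymes Pgd (1.09) and G6pdx (1.08) and the transketolase Tkt (0.91), with adjusted p of 0.00171, 0.00898 and 0.0184, and they were higher under both scalings. The higher genes numbered 2 without WT library 2 or 3 or D51 library 4 or 5.

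Of 19 further enzymes tested, 3 were higher and 5 lower. The count of higher enzymes lay near the share of all genes called higher (16.1%), and 11.9% of all genes were called lower. The higher ones were the glycogen-binding protein Stbd1 (1.04, adjusted p = 0.000769), the galactokinase Galk1 (1.47, adjusted p = 0.00526) and the phosphoglucomutase relative Pgm5 (0.88, adjusted p = 0.0101). Galk1 rested on 56 raw counts in WT and 203 in D51. The 5 lower ones, named after their values were seen, were Epm2a (-0.60, adjusted p = 0.0113), Tigar (-0.69, adjusted p = 0.0139), Pgm2l1 (-0.66, adjusted p = 0.0209), Bpgm (-0.46, adjusted p = 0.0389) and Gaa (-0.47, adjusted p = 0.0458). Only Tigar kept its call with library size alone (-0.36, adjusted p = 0.0479). Library size alone gave 8 higher and 1 lower, and the lower enzymes numbered 3 without WT library 1 and 2 without WT library 2 or 3 or D51 library 4 or 5. Of 17 glycogen-targeting phosphatase subunits and kinases tested, 1 was higher and 2 lower: Prkag2, a regulatory subunit of AMP-activated kinase (0.43, adjusted p = 0.0315), Ppp1r3a, which carries the phosphatase to glycogen in muscle (-0.58, adjusted p = 0.0354), and the glycogen synthase kinase Gsk3a (-0.33, adjusted p = 0.0426). Neither count of this list was above the share of all genes called (16.1% higher and 11.9% lower). With library size alone 4 of the 17 were higher and 0 lower, where 37.6% of all genes were higher, and Gsk3a was at 0.02. Both counts were 0 without WT library 2 or D51 library 4, 1 and 0 without D51 library 5, 1 and 1 without WT library 1 or 3, and 0 and 6 without D51 library 6. Of 15 transcription factors linked to glycolytic genes, 3 were higher and 7 lower. The nuclear receptor Esrra (-0.78, adjusted p = 0.00245), the hypoxia factor Epas1 (-0.77, adjusted p = 0.00294) and the homeobox factor Six4 (-0.46, adjusted p = 0.0107) were lower, and Six4 lost its call with library size alone (-0.11, adjusted p = 0.531). The 3 higher factors, named after their values were seen, were the hypoxia factor Hif1a (0.51, adjusted p = 0.018), Myc (1.01, adjusted p = 0.0173) and the nuclear receptor Nr4a3 (2.15, adjusted p = 0.0229). Library size alone gave 4 higher and 2 lower factors. Higher and lower factors numbered 0 and 3 without WT library 2, 2 and 4 without WT library 1 or 3, 1 and 5 without D51 library 4, and 3 and 3 without D51 library 5.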

How the data were processed

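RNA-seq of tibialis anterior muscle was available as whole-number gene counts and RPKM for 3 WT and 3 D51 libraries of stranded mRNA, both deposited by the authors. Per the submitters' processing notes, FastQC 0.11.4, featureCounts 1.6.0 and edgeR 3.30.1 were used with GRCm38/mm10; no aligner, strand setting or treatment of multi-mapping reads is given in the labels or notes. The deposited RPKM follow count, length and library total and were further adjusted by a step that is not stated. The authors' deposited comparison table gives log2 fold changes, log2 CPM, a likelihood-ratio score, p-values, their −log10 and FDR, per the file headers.

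Counts were tested with edgeR 4.0.16 (R 4.3.3; TMM, filterByExpr by group, quasi-likelihood F-test), fitted on all 14335 genes that passed and adjusted over them with the Benjamini-Hochberg method at 0.05; SE is the log2 fold change divided by the square root of F. CPM are counts per 1000000 of the TMM-scaled library total, and counts per exon length (RPKM) used the length in the table. The test was also run on simulated counts in which a small set of genes was changed in random directions. That run does not bear on the choice of scaling between libraries. Labelled replicate numbers gave correlations of 0.35, -0.01 and 0.06 and were not used for pairing. Alternatives were DESeq2 1.42.0 (its size factors and its test), limma 3.58.1 (voom, and trend on RPKM plus 0.1 or 1), library size alone with and without mitochondrial-genome genes, TMM without the 20 most abundant genes, 2 other filters, a replicate block, and leaving out each library.

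The members and lists were chosen with earlier results of these data known. All 39 members are accounted for: values per library are given for called members and for the families that hold one, and beyond that rule for a few others. For each pathway list, at most the 3 called genes with the smallest adjusted p are named. More were named, after their values were seen, for the further enzymes and the transcription factors. The part of the replicates' spread that comes from litter or cage is not given by the labels. Coordinates and transcripts are from GENCODE M21 and promoters from RefSeq, both on GRCm38.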

Additional observations from a re-analysis of the deposited data

How the results depend on the processing

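The 9 higher calls numbered 7 to 12 over 17 alternatives, against 0 to 14 for the 6 lower calls. Members called lower numbered 0 with library size alone and with limma-trend on RPKM plus 0.1 or plus 1, 3 with library size without mitochondrial-genome genes, 13 with no filter and 10 with DESeq2, and 1 to 14 when a library was left out. A replicate block gave 8 lower and 9 higher members. The difference in the members' share of all counts (D51 minus WT, -0.035 percentage points) was -0.377 without mitochondrial-genome genes in the totals, and -0.204 to 0.131 when a library was left out. All 6 ratios of muscle to other forms kept their direction without length, with the deposited RPKM and without each library. Leaving out a library could not have reversed them, since the groups did not overlap in any of the 6 families. Length could not either for Pgam2 against Pgam1 or Ldha against Ldhb, where it cancels from the difference. Over all genes, 2309 higher and 1701 lower calls became 5394 and 334 with library size alone, 3724 and 517 without mitochondrial-genome genes, 5222 and 309 with RPKM plus 0.1, and 5071 and 308 with RPKM plus 1. Leaving out a library gave 1346 to 2662 higher and 663 to 2157 lower calls.

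Log2 fold changes below 0 with TMM turned positive with library size alone for Gpi1 (0.090), Tpi1 (0.224), Gapdh (0.114), Pgam2 (0.080), Eno3 (0.049), Pkm (0.218), Ldha (0.300), Pfkfb2 (0.0057), Fbp2 (0.049), Gbe1 (0.134) and Ugp2 (0.264). With mitochondrial-genome genes also left out they were positive for Tpi1 (0.114), Gapdh (0.0041), Pkm (0.108), Ldha (0.190), Gbe1 (0.023) and Ugp2 (0.155). With RPKM plus 0.1 and plus 1 in turn they were 0.088 and 0.087 for Gpi1, 0.221 and 0.221 for Tpi1, 0.112 and 0.112 for Gapdh, 0.081 and 0.081 for Pgam2, 0.045 and 0.045 for Eno3, 0.216 and 0.216 for Pkm, 0.300 and 0.299 for Ldha, 0.047 and 0.045 for Fbp2, 0.106 and 0.104 for Gbe1 and 0.241 and 0.240 for Ugp2. The RPKM fits thus moved these genes the same way as library size alone. Leaving out a library gave -0.118 to 0.042 for Ldha, -0.239 to 0.014 for Ugp2 and -1.69 to 0.19 for Pfkfb3. The cause of the changes with single libraries was not tested. With 3 libraries a group, changes of low genes such as Eno2 rest on few counts.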
